A study of Arabidopsis thaliana with 36 samples.

Results

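The response of wild-type Arabidopsis seedlings to red light was followed in 6 libraries, 3 from seedlings kept in the dark and 3 from seedlings given red light, by taking every row of the authors' expression and splicing comparisons of these groups. The members were the 6227 transcripts in the expression table, of 22894 rows in the 4 expression tables of the series, and the 2007 regions in the splicing table, of 56407 rows in 12 splicing tables. All seedlings were Col-0 wild type, grown on Murashige and Skoog medium with 0.9% agar and no sucrose. Seeds were chilled for 4 days at 4 °C, given 3 h of white light so that they germinated, and held in darkness for 4 days. The dark group then stayed dark, and the red group received 3 h of continuous red light (7 µmol m-2 s-1). RNA came from 0.1 g of whole seedlings, was depleted of ribosomal RNA and was read at 150 bases. The series also holds 5 mutant genotypes, of which only the seedlings labelled swap1-1, mutated in a splicing factor, are compared below. Whether the replicates were grown apart is not in the labels, so the authors' p-values measure only the spread between these libraries.

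Seedlings that germinate in the dark elongate the hypocotyl, keep a closed apical hook and live on seed reserves. Red light converts phytochromes to their active form, which then bind PHYTOCHROME INTERACTING FACTORS (PIFs), basic helix-loop-helix proteins that hold the dark programme in place, and lead to their breakdown. Active phytochromes also restrain the COP1/SPA ubiquitin ligase, so that HY5 and other factors that promote greening accumulate. Phytochrome also acts on pre-mRNA splicing in plants, and an intron kept in the mature transcript usually brings in a stop codon.

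A transcript or region is called here when it is listed in the authors' deposited table. In the expression table this means an adjusted p below 0.05 with a log2 fold change of 0.58 or more in size. The table gives a base mean over the libraries of both groups and a fold change, from which the mean level of each group was solved as a normalised read count. No value of a single library is among the files, so every level below is a group mean, its error is the authors' standard error (SE) of the log2 fold change, and the overlap of libraries between groups cannot be seen. The depth of each library is unknown. Unless an isoform is named, a level given for a gene is that of its called transcript of highest base mean. For a gene with several isoforms it is not the level of the whole gene. The median base mean of that transcript was 1073 for genes with 1 annotated isoform and 199.7 for those with 6 or more. Whole seedlings were sampled, so fewer cells of a type and less RNA per cell cannot be told apart.

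The fold change was red light over dark. Of 8 genes known to rise in light, 7 were called and all 7 were higher, among them the light-harvesting gene LHCB2.2 from 6150.2 to 189268 (log2 fold change 4.94, SE 0.11). RBCS1A, a Rubisco small subunit gene, was the one not called. All 5 genes known to fall in light were lower. Among them PORA, the protochlorophyllide reductase of dark-grown seedlings, went from 1967 to 71.5 (log2 fold change -4.78, SE 0.17) in 1 of 2 isoforms. The levels gave the same answer without known genes. With red light over dark, the wild-type dark levels solved from this table and from the authors' table of wild type and swap1-1 in the dark differed by 1 constant, with 95% of 1196 transcripts within 0.00496 log2 units of it.

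Red light raised 3760 transcripts and lowered 2467 in the authors' deposited table. At least 28333 transcripts had been tested, so 13.3% were called as higher and 8.71% as lower. The median log2 fold change was 1.19 among the higher and -1.0 among the lower transcripts. Changes of at least 3 log2 units were more often rises, with 391 higher and 150 lower transcripts. By locus, 12.6% of the 27444 nuclear protein-coding genes were called as higher and 7.97% as lower, and the gene lists below are read against these shares. Of genes that make no protein, 24 of 287 annotated snoRNA genes were called, 4 higher and 20 lower. Of 3923 annotated pseudogenes 82 were called, 30 higher and 52 lower. Both kinds were called less often than protein-coding genes. Among plastid identifiers, whose total is not known here, 9 were higher and 17 lower. Precision followed the level: the median SE was 1.40 for the 185 called transcripts with a base mean below 10 and 0.0855 for the 527 with the highest base means.

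**Figure D1:**
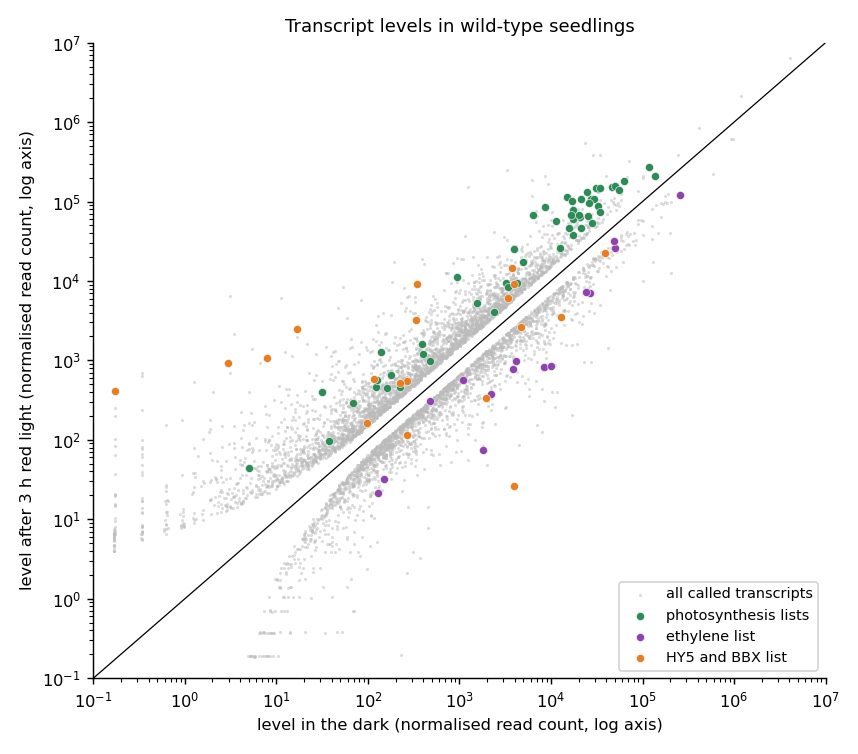
Level of each of the 6227 called transcripts in the dark (x axis) and after 3 h of red light (y axis), both as normalised read counts on log axes, with the line of equal levels. Members of the photosynthesis lists lie above the line and those of the ethylene list below it, while the HY5 and BBX list lies on both sides, and columns of points at dark levels under 1 are transcripts that the dark libraries barely contained.

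The photoreceptors changed selectively. Of 14 genes on the list, 4 were higher (2 of them by 1 log2 unit or more) and 2 lower in the authors' deposited table, and PHYB to PHYE, CRY1 and CRY2 were not called. PHOT1, the blue light receptor that steers phototropism at low light, went from 1977 to 47.9 (log2 fold change -5.37, SE 0.16). PHOT2, the phototropin active in strong light, went from 200.4 to 594 (log2 fold change 1.57, SE 0.15) in its most abundant called isoform, and the 3 called isoforms were all higher. The phototropins thus moved in opposite directions. PHYA, the phytochrome that accumulates in darkness, went from 10328 to 3869 (log2 fold change -1.42, SE 0.11), and CRY3, an organellar cryptochrome with DNA repair activity, went from 1496 to 7138 (log2 fold change 2.25, SE 0.11). The blue light receptors of the ZEITLUPE family FKF1 and ZTL were higher by 0.86 and 0.62 log2 units.

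Genes of the PIF family and of the helix-loop-helix (HLH) proteins that bind PIFs split evenly, with 5 of 11 higher and 5 lower in the authors' deposited table, 3 of the latter by 1 log2 unit or more. PIF7, which drives shade-induced elongation, went from 12.6 to 440.2 (log2 fold change 5.12, SE 0.29). PIF4, which links light and temperature to growth, went from 58.1 to 467 (log2 fold change 3.01, SE 0.20), and PIF5, its close paralogue, went from 14.9 to 100.4 (log2 fold change 2.75, SE 0.36). PIF8 went from 1395 to 5735 (log2 fold change 2.04, SE 0.10) and PIF1, the repressor of germination, was higher by 0.94. The genes for the short HLH proteins fell: PAR1, which blocks PIF4 by binding it, went from 10586 to 1927 (log2 fold change -2.46, SE 0.11), and its paralogue PAR2 went from 8005 to 3295 (log2 fold change -1.28, SE 0.071). PIL1, a shade marker of the same family, was at -4.68, PIF3 at -0.78 and PIF6 at -0.67. The PIF6 call was weak, its level going from 104 to 65.1 (log2 fold change -0.67, SE 0.27). HFR1 was not called.

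All 19 genes of HY5 and the B-box (BBX) zinc finger proteins were called, 13 higher and 6 lower. BBX proteins bind HY5 or COP1, and different members promote or oppose greening. BBX30 and BBX31, small proteins that oppose photomorphogenesis in white light, went from 2.95 to 940.0 (log2 fold change 8.32, SE 1.11) and from 16.8 to 2502 (log2 fold change 7.21, SE 0.72) in the authors' deposited table. BBX32, which opposes light signalling through BBX21, went from 7.89 to 1066 (log2 fold change 7.08, SE 0.50). BBX16 reached 409 in red light from a solved dark level of 0.174, which is under 1 normalised read and gives no size for its rise. The largest fall was that of BBX23, from 3924 to 26.3 (log2 fold change -7.22, SE 0.82). BBX21 and BBX20, which promote HY5 activity, were lower by a smaller amount, BBX21 from 38488 to 22276 (log2 fold change -0.79, SE 0.060) and BBX20 from 4657 to 2663 (log2 fold change -0.81, SE 0.13). BBX28, which keeps HY5 from DNA, went from 12960.2 to 3495 (log2 fold change -1.89, SE 0.13), and BBX17 and BBX29 were at -2.54 and -1.23. HY5 itself went from 3957 to 9059 (log2 fold change 1.19, SE 0.11) and its homologue HYH went from 264 to 552 (log2 fold change 1.07, SE 0.15).

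In the COP1, SPA and RUP list 6 of 10 genes were higher and none was lower in the authors' deposited table. RUP2, a repressor of the UV-B receptor and itself a target of HY5, went from 155 to 2169 (log2 fold change 3.81, SE 0.12), and RUP1 went from 1171 to 3156 (log2 fold change 1.43, SE 0.085). SPA3, a partner of COP1, went from 3797 to 12008 (log2 fold change 1.66, SE 0.069). SPA4 was at 0.85 and SPA1 and COP1, the core of the ligase, were at 2.42 and 0.65. DET1, DDB1A, CUL4 and SPA2 were not called. Repressors of light signalling and factors that promote greening were both among the genes that rose.

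**Figure D2:**
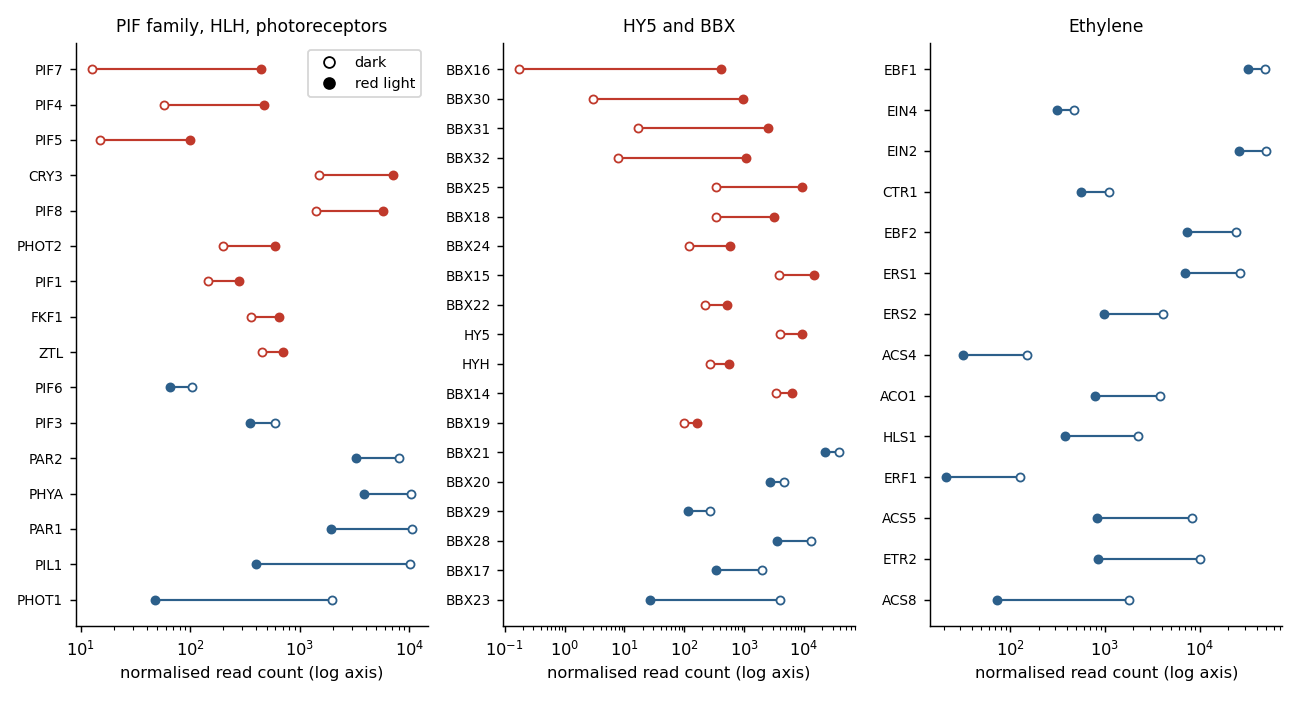
Group mean levels of called members of 4 lists (1 ethylene gene is not drawn) in 3 panels as normalised read counts on log axes, with open points for the dark and filled points for red light and 1 gene per row ordered by fold change. Lines are red where the level was higher in red light, and every ethylene gene drawn was lower, while BBX genes range from a rise of BBX16 that starts under 1 read to the fall of BBX23 from 3924 to 26.3.

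Transcripts of ethylene pathway genes fell as a group. They included genes of synthesis and signal transfer and also the F-box genes that act against EIN3, so they give no direction for signalling. Ethylene keeps the apical hook closed in the dark, and 15 of 20 listed genes were lower and none higher, with a median of -2.07 among the called genes. Synthesis genes were low in red light: ACS8, for an enzyme that makes the ethylene precursor, went from 1796 to 73.6 (log2 fold change -4.61, SE 0.17), ACS5 went from 8290.4 to 825 (log2 fold change -3.33, SE 0.073) and ACS4 went from 149.7 to 32.1 (log2 fold change -2.22, SE 0.31). ACO1, which completes the synthesis, went from 3814 to 782 (log2 fold change -2.29, SE 0.084). Of the receptors, ETR2 went from 10110.3 to 847 (log2 fold change -3.58, SE 0.11), ERS1 went from 26661 to 6978 (log2 fold change -1.93, SE 0.077), ERS2 was at -2.07 and EIN4 at -0.61. EIN2, the central transducer, went from 50498 to 25867 (log2 fold change -0.97, SE 0.058), and EBF2 and EBF1, the F-box proteins that degrade EIN3, were at -1.72 and -0.59. HLS1, which the hook needs to stay closed, went from 2211 to 379 (log2 fold change -2.55, SE 0.097). ETR1, EIN3, EIL1, ACS6 and ACS11 were not called.

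Auxin genes fell too, with 12 of 25 lower, 7 of them by 1 log2 unit or more, and 1 higher in the authors' deposited table. YUC3, which completes auxin synthesis, went from 2069.6 to 306 (log2 fold change -2.76, SE 0.10), and YUC8 and YUC9 were at -0.95 and -0.82. TAA1, the first enzyme of the route, went from 3533 to 1673 (log2 fold change -1.08, SE 0.092). The early response genes IAA29 and IAA6 went from 6579 to 1323 (log2 fold change -2.31, SE 0.085) and from 3271 to 663 (log2 fold change -2.30, SE 0.30). PID, a kinase that directs auxin transport, went from 1773 to 638 (log2 fold change -1.47, SE 0.098). DFL1, which conjugates auxin to amino acids, was the member that rose, from 10544 to 21765 (log2 fold change 1.05, SE 0.084), while the related GH3.3 went from 8989 to 1985 (log2 fold change -2.18, SE 0.080). None of the 4 listed PIN transporters nor AUX1 was called. The class II HD-ZIP factors, which respond to shade, were lower in 5 of 7 cases, with ATHB4 from 1541 to 358 (log2 fold change -2.11, SE 0.10) and HAT3 from 3249 to 1152 (log2 fold change -1.50, SE 0.087).

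The other hormones gave smaller groups. Of 17 brassinosteroid genes 4 were lower and none higher, and these were HLH factors of its growth response: PRE5 went from 2319 to 359 (log2 fold change -2.69, SE 0.12), PRE6 went from 11656 to 3753 (log2 fold change -1.63, SE 0.081), the antagonist IBH1 went from 8315 to 2821 (log2 fold change -1.56, SE 0.12) and PRE1 was at -0.76. No synthesis gene of that list was called. Of 20 gibberellin genes 4 were higher and 3 lower, 1 of the latter by 1 log2 unit or more. GA2OX1, which inactivates gibberellin, went from 59.2 to 3409 (log2 fold change 5.85, SE 0.14), and GA3OX2, which makes the active form, went from 8.02 to 95.1 (log2 fold change 3.57, SE 0.46). GASA6, a gibberellin-induced peptide gene, went from 9257 to 49976 (log2 fold change 2.43, SE 0.087). The DELLA repressor genes GAI and RGL1 were lower, GAI from 12303 to 5435 (log2 fold change -1.18, SE 0.082) and RGL1 from 5377 to 3318 (log2 fold change -0.70, SE 0.080). GA2OX6 was at -0.95 with an SE of 0.38.

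Of 16 cytokinin genes 6 were higher and 4 lower in the authors' deposited table, 1 of the latter by 1 log2 unit or more. The risers were type A response regulators, which dampen cytokinin signalling: ARR16 went from 21.5 to 273 (log2 fold change 3.67, SE 0.26), ARR15 from 15.8 to 180.2 (log2 fold change 3.51, SE 0.80) and ARR7 from 401 to 2440.4 (log2 fold change 2.60, SE 0.10), and ARR6, ARR4 and ARR9 lay between 0.88 and 1.11. ARR3, of the same class, went from 709 to 438 (log2 fold change -0.70, SE 0.11). The other members that fell were CKX5, a cytokinin oxidase, from 941 to 522 (log2 fold change -0.85, SE 0.11), IPT3, a synthesis gene, from 865 to 565 (log2 fold change -0.61, SE 0.11), and the receptor AHK4. AHK4 was called in opposite directions by isoform, from 140.4 to 54.0 in isoform 1 and from 11.4 to 56.8 in isoform 2, with isoform 3 also higher. How reads shared by isoforms were assigned is not given in the sources used here.

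Cell wall genes were split between families of expansins and of xyloglucan endotransglucosylases (XTHs), the wall-loosening proteins of growing cells. Of 24 genes 9 were lower and 6 higher. XTH15 was at -4.01, XTH5 went from 4274 to 536 (log2 fold change -3.00, SE 0.11), EXPA11 from 13929 to 4351 (log2 fold change -1.68, SE 0.23) and XTH19 from 25133 to 8063 (log2 fold change -1.64, SE 0.083). The genes that rose included EXPA10, from 448 to 3029.6 (log2 fold change 2.76, SE 0.14), EXPA5, from 1743 to 6548 (log2 fold change 1.91, SE 0.086), XTH16, from 10008 to 30369 (log2 fold change 1.60, SE 0.100), and EXPA2, from 2754 to 7961 (log2 fold change 1.53, SE 0.10). EXPA6 and TCH4 were at 1.35 and 1.06. Both directions thus held wall-loosening genes of the same families. Of 13 plasma membrane aquaporins, 7 were higher, 4 of them by 1 log2 unit or more, and PIP2;4 was lower, from 71349 to 28698 (log2 fold change -1.31, SE 0.088). PIP1;4 went from 87.4 to 305 (log2 fold change 1.80, SE 0.27) and PIP2;3 went from 11527 to 29365 (log2 fold change 1.35, SE 0.073). Of 17 cell cycle and DNA replication genes only RNR2A, MCM3 and CYCD3;1 were called, all higher and 1 of them by 1 log2 unit or more, with RNR2A, a ribonucleotide reductase subunit, from 716 to 1678 (log2 fold change 1.23, SE 0.089).

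The called transcripts of listed nuclear genes of the photosynthetic machinery rose, apart from 1 isoform of PETC. Some of these genes, such as CURT1A and PSBQA, were called in 1 of 2 isoforms, and an uncalled isoform has no value here. All 12 genes of photosystem I, all 11 of photosystem II and all 13 of electron transport and ATP synthase were higher, with medians of 2.22, 1.71 and 1.73. PSAH2, a docking subunit for antenna proteins, went from 15112 to 113114 (log2 fold change 2.90, SE 0.094), and PSAN, PSAO and PSAK were at 2.66, 2.60 and 2.39. Its paralogue PSAH1 rose less, from 21472 to 46038 (log2 fold change 1.1, SE 0.11). PSBO2, of the oxygen-evolving complex, went from 8704 to 86146 (log2 fold change 3.31, SE 0.11), and its paralogue PSBO1 went from 63251 to 183478 (log2 fold change 1.54, SE 0.10). PGRL1A, of cyclic electron flow, went from 4.99 to 44.1 (log2 fold change 3.14, SE 0.54) in 1 of 5 isoforms, a low level with a wide error. FD2, the main leaf ferredoxin, went from 34236 to 147818 (log2 fold change 2.11, SE 0.11), and ATPD, a subunit of ATP synthase, went from 16422 to 66956 (log2 fold change 2.03, SE 0.11). PETC, the Rieske protein of the cytochrome complex, went from 124 to 462 (log2 fold change 1.90, SE 0.17) in isoform 2 and from 109 to 69.5 in isoform 1.

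Carbon fixation followed the same direction, with 17 of 20 Calvin cycle genes higher and 11 of 14 photorespiration genes higher, none lower. CP12-2, a small regulator of the cycle, went from 929 to 11073 (log2 fold change 3.58, SE 0.10). RCA, the chaperone of Rubisco, went from 139 to 1260.3 (log2 fold change 3.18, SE 0.13) in its called isoform, 1 of 3. FBA1, an aldolase, went from 31.1 to 397 (log2 fold change 3.67, SE 0.22), also in 1 of 3 isoforms. The Rubisco small subunit genes are near-identical, so reads can be split between them: RBCS1B was at 3.40, RBCS3B at 1.05 and RBCS2B at 0.62. In photorespiration HPR, which reduces hydroxypyruvate, went from 463 to 4097 (log2 fold change 3.14, SE 0.11), GLDP1, a subunit of glycine decarboxylase, went from 1619 to 12399 (log2 fold change 2.94, SE 0.12), and GGT1, a glyoxylate aminotransferase, went from 2711 to 16583 (log2 fold change 2.61, SE 0.093). GOX1, a glycolate oxidase, was at 2.57 with 4 called isoforms, all higher. GOX2, GLYK and PGLP1 were not called.

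Genes that protect or regulate the forming chloroplast were also higher. Of the 7 early light-induced and one-helix protein genes 6 were higher: ELIP2 went from 7056 to 66439.9 (log2 fold change 3.24, SE 0.13), ELIP1 from 10343 to 73458 (log2 fold change 2.83, SE 0.29) and OHP1, needed to assemble photosystem II, from 4879 to 23689 (log2 fold change 2.28, SE 0.091). Of 14 carotenoid genes 10 were higher, 3 of them by 1 log2 unit or more, with ABA1, zeaxanthin epoxidase, from 207 to 1577 (log2 fold change 2.93, SE 0.13), and BCH2, a carotene hydroxylase, from 253 to 841 (log2 fold change 1.73, SE 0.11). Of 11 regulators of greening 8 were higher. CGA1, a GATA factor, went from 64.7 to 1860.2 (log2 fold change 4.85, SE 0.17), and SIG5, a sigma factor of the plastid RNA polymerase, went from 703 to 12693 (log2 fold change 4.17, SE 0.11). GLK2, which switches on photosynthesis genes, went from 2172 to 10300.3 (log2 fold change 2.25, SE 0.073), and GUN4, an activator of chlorophyll synthesis, went from 7970.3 to 35652 (log2 fold change 2.16, SE 0.14). GLK1, GNC and SIG6 were not called. By contrast 4 of 16 plastid translation genes were higher, 2 of them by 1 log2 unit or more, and RPL4, the furthest changed, went from 116 to 263 (log2 fold change 1.18, SE 0.17).

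Genes of reserve use and starvation fell or were not called. Of 18 genes of the glyoxylate cycle and fatty acid breakdown 3 were lower, 1 of them by 1 log2 unit or more: PCK1, the entry to sugar synthesis from lipid, went from 161039 to 63053 (log2 fold change -1.35, SE 0.068), and ICL and MLS were at -0.75 and -0.70. Of 13 genes that rise when sugar is short 9 were lower, 5 of them by 1 log2 unit or more, and none higher. BCAT2, which breaks down branched amino acids, went from 2474 to 646 (log2 fold change -1.94, SE 0.087), and DYL1, a dormancy-associated gene, went from 2811 to 783 (log2 fold change -1.84, SE 0.081). SEN1 went from 6005 to 2264 (log2 fold change -1.41, SE 0.094) and ASN1, the dark-induced asparagine synthetase, went from 642 to 260.0 (log2 fold change -1.30, SE 0.15). Of 17 starch and sugar genes 6 were higher, with BAM3, the chloroplast amylase that degrades starch, from 325 to 5397 (log2 fold change 4.06, SE 0.089), and APL1, of starch synthesis, from 6866 to 19795 (log2 fold change 1.53, SE 0.11). DPE1, which handles maltotriose, went from 2803 to 1122 (log2 fold change -1.32, SE 0.11) and APL3 from 2395 to 1534 (log2 fold change -0.64, SE 0.12), against the others, of which only DPE1 fell by 1 log2 unit or more. Of 14 nitrogen and sulfur genes 6 were higher, with NIR1, nitrite reductase, from 16264 to 54410.4 (log2 fold change 1.74, SE 0.083), and NRT2:1, a nitrate transporter, from 4.49 to 58.6 (log2 fold change 3.71, SE 0.66). Of 12 antioxidant genes 4 were higher, 2 of them by 1 log2 unit or more, with FSD1, an iron superoxide dismutase, from 151 to 344 (log2 fold change 1.19, SE 0.22).

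**Figure D3:**
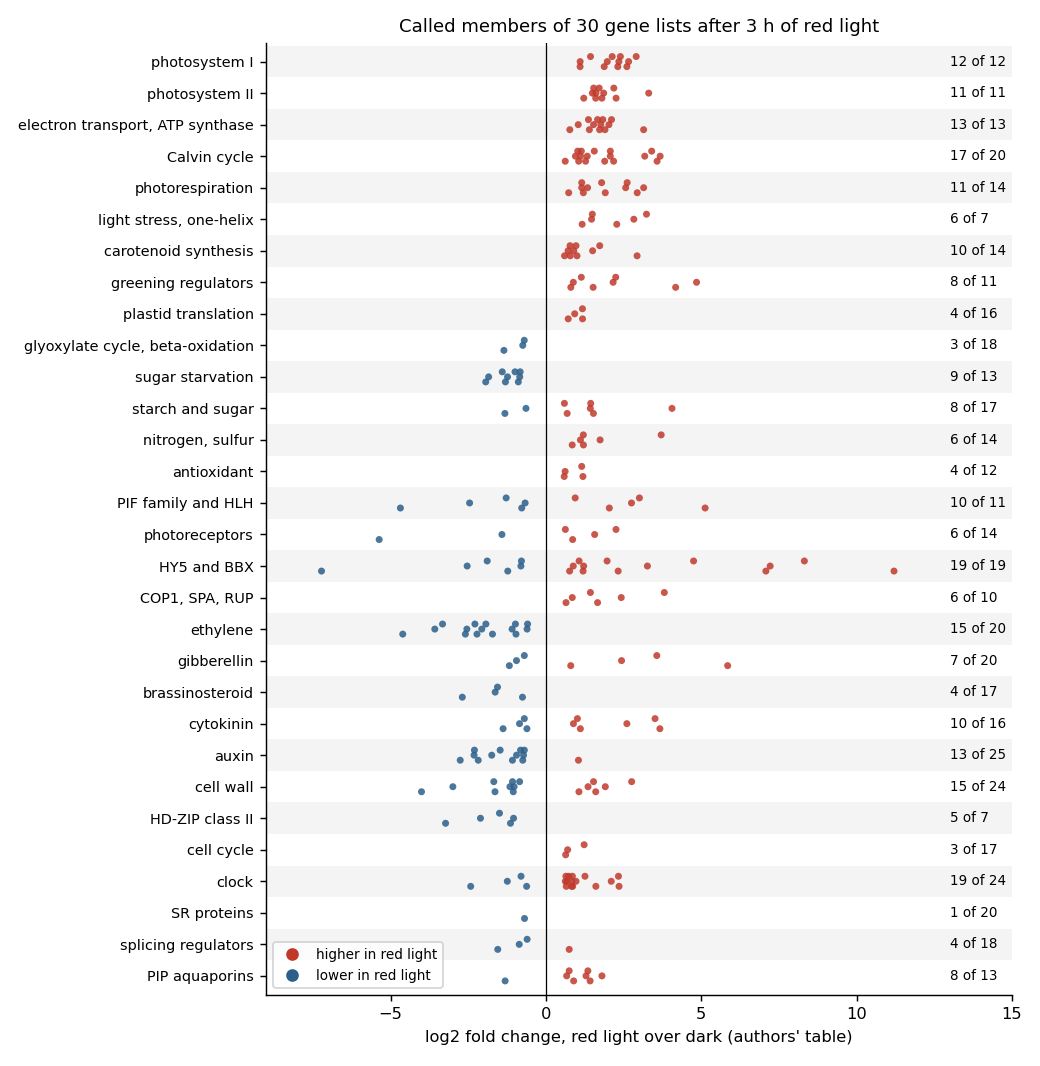
Log2 fold change, red light over dark, of each called member of 30 gene lists (1 point per locus, red for higher and blue for lower), with the number called and the number listed at the right. The lists of photosynthesis hold red points alone and the ethylene list blue points alone, at a background of 12.6% of genes called as higher and 7.97% as lower.

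In the circadian clock list 15 of 24 genes were higher and 4 lower in the authors' deposited table, but most by little: 5 were higher and 2 lower by 1 log2 unit or more. PRR9 and PRR5, repressors that act after dawn, went from 17.9 to 76.9 (log2 fold change 2.10, SE 0.42) and from 899 to 2735 (log2 fold change 1.61, SE 0.12), and LNK1 and ELF4 were at 2.35 and 2.33. GI, which reads day length, went from 11762 to 22986 (log2 fold change 0.97, SE 0.085), and RVE7 went from 258 to 616 (log2 fold change 1.26, SE 0.13). The members that fell were LHY, BOA, RVE2 and LUX. BOA, of the evening complex, went from 3519.8 to 1487 (log2 fold change -1.24, SE 0.092), RVE2 went from 22097 to 12667 (log2 fold change -0.80, SE 0.077) and LUX went from 425 to 276 (log2 fold change -0.62, SE 0.15). LHY, a morning factor, went from 204 to 38.1 (log2 fold change -2.42, SE 0.24), but this was 1 of 8 annotated isoforms and the other 7 were not called. CCA1, its partner, TOC1, PRR3, ELF3 and JMJD5 were not called.

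Splicing factor genes were called at shares near or below the background. Of 20 genes for SR proteins, which guide splice site choice, only RS40 was called, from 264 to 163 (log2 fold change -0.70, SE 0.16). Of 18 other splicing regulators 3 were lower and 1 higher, or 1 lower and none higher at a size of 1 log2 unit or more: the clock-coupled RNA-binding protein gene GRP7 went from 8655 to 2953 (log2 fold change -1.55, SE 0.091), U2AF35A, of the factor that reads the 3′ splice site, went from 2266 to 1488 (log2 fold change -0.61, SE 0.077) and U2AF35B went from 51.2 to 85.9 (log2 fold change 0.75, SE 0.27). SWAP1 itself went from 157 to 86.5 (log2 fold change -0.86, SE 0.27) in 1 of 3 isoforms. SFPS and RRC1, which the series also mutated, were not called.

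Some of the furthest changes lay outside the lists, beside those of BBX16 and BBX23. Among transcripts with a base mean of at least 100, scpl10, which encodes a serine carboxypeptidase-like protein, went from 3.13 to 6446 (log2 fold change 11.01, SE 0.46). NDA1, a mitochondrial NAD(P)H dehydrogenase, went from 3.44 to 2154 (log2 fold change 9.29, SE 0.44) and THI2.2, a thionin, went from 11.3 to 6181 (log2 fold change 9.10, SE 0.25). LTP4, a lipid transfer protein gene, and SWEET4, a sugar transporter gene, reached 200.1 and 240 from solved dark levels under 1. The falls included CYP96A5, a cytochrome P450 gene, from 7929 to 124 (log2 fold change -5.99, SE 0.39), and GRF7, a growth-regulating factor gene, from 16753 to 208 (log2 fold change -6.33, SE 0.56). Among abundant transcripts LTP2, another lipid transfer protein gene, went from 593386 to 225082 (log2 fold change -1.40, SE 0.080), while LHCA4, of the photosystem I antenna, went from 34004 to 386148 (log2 fold change 3.51, SE 0.087).

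Of 326 annotated miRNA genes 29 were called, a share of 8.90%, 11 higher and 18 lower in the authors' deposited table. The values are for the annotated gene transcript, a precursor, and not for the mature miRNA. MIR163 rose furthest among those with over 100 reads, from 123 to 2796 (log2 fold change 4.50, SE 0.16), MIR394b went from 27.1 to 121 (log2 fold change 2.16, SE 0.33) and MIR157c from 16 to 126 (log2 fold change 2.98, SE 0.84). MIR447b went from 58.5 to 5.60 (log2 fold change -3.39, SE 0.62), MIR172a from 108 to 11.2 (log2 fold change -3.28, SE 0.41), MIR167d from 2398 to 489 (log2 fold change -2.29, SE 0.12) and MIR396a from 351 to 112 (log2 fold change -1.64, SE 0.18). The mature sequences of genes named here are shown because some of those that share a seed, bases 2 to 8 in capitals, moved together and others did not, with sequences from RefSeq, TAIR10.1.
miR163 (higher): tTGAAGAGgacttggaacttcgat
miR394b-5p (higher): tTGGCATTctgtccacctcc
miR172a (lower): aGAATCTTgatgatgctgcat
miR396a-5p (lower): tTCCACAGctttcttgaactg
miR396b-5p (lower): tTCCACAGctttcttgaactt
miR169i, miR169k, miR169l, miR169m and miR169n (lower): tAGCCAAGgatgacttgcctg
miR165a-3p (higher): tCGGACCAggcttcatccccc
miR166e-3p (lower): tCGGACCAggcttcattcccc
The MIR169 genes i, k, l, m and n lie close together on chromosome 3 with 1 mature sequence, and were all lower, from -1.14 to -1.67. MIR396a and MIR396b, which share a seed, were at -1.64 and -0.81. MIR165a and MIR166e, which share a seed and target the same class of HD-ZIP genes, moved apart, MIR165a from 103 to 175 (log2 fold change 0.77, SE 0.21) and MIR166e from 78.2 to 37.1 (log2 fold change -1.08, SE 0.30). MIR171a and MIR171b, whose annotated mature sequences do not share a seed, were at 0.62 and -0.74. Reads of near-identical precursors could be split between copies, so values within the MIR169 group are uncertain.

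Upstream of genes that rose, the G-box (CACGTG), the core element read by PIFs and HY5, was more frequent. It was sought in the 300 bases before the start of 27443 nuclear protein-coding genes in the TAIR10.1 annotation, and as a palindrome it covers both strands. It was found in 7.09% of all promoters, 11.5% of those of the higher genes, 15.9% of those higher by at least 2 log2 units, 7.77% of those of the lower genes and 6.32% of those not called. The related element CACATG, searched on both strands, was in 13.1% of all, 18.1% of the genes higher by at least 2 and 20.2% of those lower by at least 2. The site II element GGCCCA and the telo-box AAACCCTA, both searched on both strands, were in 14.6% and 5.21% of all promoters but in 9.44% and 2.88% of genes higher by at least 2 and in 6.95% and 2.72% of genes lower by at least 2. Stretches of 60 bases are shown for members named above, 5′ to 3′ on the gene's strand with the G-box in capitals, since they place the element in genes that rose (the first 6) and in 1 that fell.
PSAH2, chr1:19454738-19454797, plus strand: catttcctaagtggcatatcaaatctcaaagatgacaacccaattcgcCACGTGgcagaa
GLDP1, chr4:15931423-15931482, minus strand: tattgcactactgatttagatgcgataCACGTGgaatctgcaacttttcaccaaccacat
ELIP1, chr3:8085703-8085762, minus strand: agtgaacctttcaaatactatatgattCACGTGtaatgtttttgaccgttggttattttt
OHP1, chr5:418986-419045, plus strand: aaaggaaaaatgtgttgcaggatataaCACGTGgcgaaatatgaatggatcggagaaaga
BBX30, chr4:8708742-8708801, plus strand: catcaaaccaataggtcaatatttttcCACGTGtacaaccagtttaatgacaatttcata
PIF5, chr3:21830970-21831029, minus strand: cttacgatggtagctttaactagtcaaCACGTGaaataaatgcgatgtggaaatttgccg
LHY, chr1:37919-37978, minus strand: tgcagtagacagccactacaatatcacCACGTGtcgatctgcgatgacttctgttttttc
The clock list held a G-box in 8 of its 24 promoters, the ethylene list in none of 20 and the HY5 and BBX list in BBX30 alone of 19. The seed storage markers, a list mostly not called for expression, held it in 6 of 11, of which only EM6 and OLEO1 were called. A match is a sequence description and shows no binding.

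The authors' gene ontology table for expression holds 1855 terms, of which 35 had an adjusted p below 0.05. No background is named for it, and the direction counts were made here from its gene lists. The terms for water deprivation and abscisic acid were mostly genes that rose, with 85 higher and 17 lower, and 86 higher and 19 lower. Cellular response to hypoxia had 22 higher and 30 lower genes, response to hypoxia 5 and 14, and negative regulation of cell population proliferation 5 and 17. Shade avoidance had 3 higher and 9 lower genes. Response to cytokinin had 15 and 9, and dephosphorylation 37 and 7. All these adjusted p-values lay between 1.60e-05 and 0.0162 in the authors' deposited table.

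Splicing calls also followed red light, and, with the bins read as red light over dark, most called introns were less covered relative to their gene. The authors' deposited table holds 2007 regions in 1458 loci, and 6.29% of the 22799 protein-coding loci with an intron held one. Of these regions 1390 were intron bins, stretches of intron whose coverage was compared with that of their gene. Retention here means that relative coverage, and 36 of the intron bins also had a junction call. Depletion of ribosomal RNA can leave unspliced precursors in the libraries, and their part in intron coverage was not tested. Retention was lower in red light in 1012 of the intron bins and higher in 378, which are 0.742% and 0.277% of 136306 annotated introns. Lower bins had a median log2 fold change of -0.79 and higher bins of 0.94. The exon bins numbered 232, and 385 regions rested on junction reads alone, whose changes carry no sign. Among 24 skipped exons 23 were less included in red light and 1 more.

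The direction of the bins was read as red light over dark. The header of the authors' table names the contrast as dark minus red light, which taken literally would reverse every direction of splicing given here. Of 16 bins present in 1 called isoform and absent from another, 13 moved with their isoform. The sign compared was that of the mean fold change of isoforms with the bin less that of isoforms without it. Of 18 intron bins lying over another called gene, 13 had the sign of that gene's fold change less that of their own gene. An uncalled own gene was taken as unchanged, and a locus could give several bins. The direction of splicing thus rests on less than that of expression, and 3 and 5 bins of these went the other way.

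Introns that lost retention were longer, and more often first in their genes, than annotated introns as a whole, although 239 of the lower bins were under 100 bases. Their median length was 238.5 bases, against 93 for those that gained it and 102 for all annotated introns. Among introns of transcripts with several introns, first introns made up 36.2% of the lower, 15.9% of the higher and 17.2% of all. Introns in untranslated regions made up 21.4% of the lower introns, 5.43% of the higher and 8.37% of all. The share with lower retention was 50.7% of the 471 called introns under 100 bases, 67.5% of those from 100 to under 200 bases and 95.3% of those from 300 to under 500 bases. Median GC content was 32.2%, 32.9% and 32.8% in the lower, higher and all introns. Coverage of a longer intron rests on more reads, and the part of that in the length difference was not tested. Of bins that overlap another gene, 41 were lower and 31 higher, and without them 73.7% were lower.

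**Figure D4:**
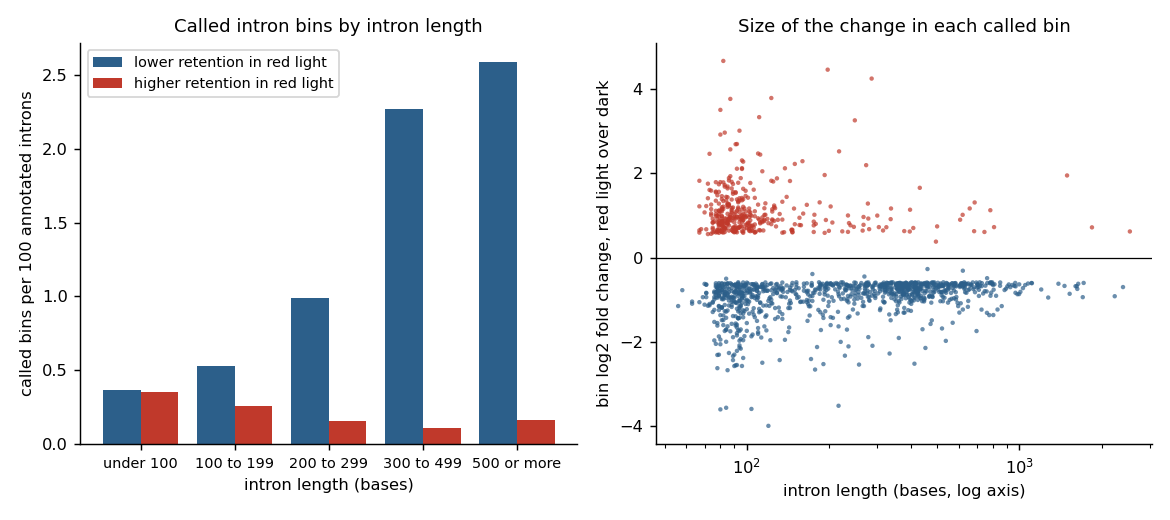
Left, called intron bins per 100 annotated introns in 5 length classes, blue for lower and red for higher retention in red light. Right, bin log2 fold change against intron length on a log axis for each of the 1390 bins, with bins of higher retention mostly short and bins of lower retention at all lengths.

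Of the 1458 loci with a splicing call 586 (40.2%) were also called for expression, 370 higher and 216 lower, while over all protein-coding loci 12.6% were called as higher and 7.97% as lower. They make up 9.93% of the loci called for expression, against 6.29% of all protein-coding loci with an intron that held a splicing call. Loci with too few reads to be called in either table count in both backgrounds. Among 854 loci with a less retained intron, 227 rose in expression and 108 fell, and among 292 with a more retained intron 53 rose and 54 fell. Loci with an exon bin were called for expression in 91 of 155 cases. The authors' gene ontology table for splicing has 1199 terms and 4 with an adjusted p below 0.05. Photorespiration (adjusted p = 0.00697) held 8 genes, of which 6 rose and 1 fell, while phosphatidylinositol phosphate biosynthesis (0.0314) held 7 genes, none called for expression.

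In the clock list 7 of 24 loci held 15 called regions, 9 of them in LHY, and in the PIF and HLH list 4 of 11 loci held 9. LHY had 9 called regions, all less covered in red light relative to the gene: intron 5 of 9 at -2.30 (FDR 2.12e-13), intron 7 at -2.21 (FDR 6.77e-11), intron 6 at -1.48 and a skipped exon at -1.81 (FDR 8.71e-13). The skipped exon and intron 5 abut an intron bin of 452 bases (-2.14) and an alternative 3′ splice site bin (-2.08). All of these lie within the same intron of isoform 1, so the 9 regions are not 9 separate events. An intron's number comes from the transcript with most exons that holds it. The locus also had the lower isoform described above. Of 12 intron bins in the clock list, 7 of them in LHY, 11 were lower, among them CCA1 at -0.93, GI at -0.62 and LNK2 at -0.65, and RVE7 was the exception at 0.62. CCA1 was called for splicing but not for expression.

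**Figure D5:**
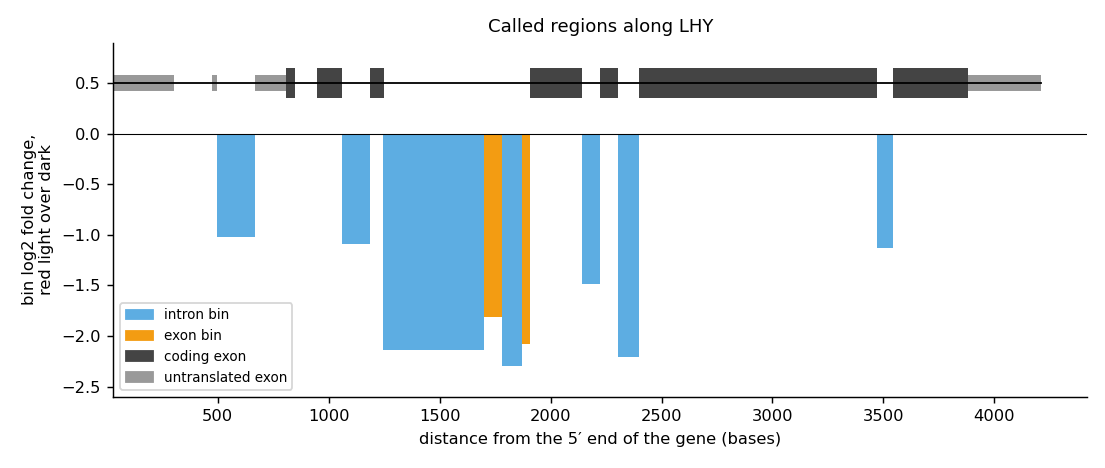
The 9 called regions along LHY, placed by distance from the 5′ end of the gene in bases, with bar width as region length and bar height as bin log2 fold change, red light over dark. The gene model of isoform 1 stands above, and all 9 bars point down, from -1.02 to -2.30.

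Photoreceptor and PIF genes were also among them. CRY3, whose transcript rose, had 4 of its 11 introns less retained, at -1.03 in intron 4 (FDR 3.73e-05) and from -0.80 to -0.87 in introns 2, 3 and 10. PIF7 intron 5 of 5 was at -1.63 (FDR 0.00322), and PIF7 had 3 further junction regions. PIL1 intron 4 of 5 was at -1.28 and HFR1 intron 4 of 4 at -0.83 (FDR 4.25e-23), although HFR1 was not called for expression. PIF6 went both ways, with intron 4 of 5 less retained, at -1.045, and intron 2 more retained, at 0.605. An exon bin of PIF6 that equals intron 1 was also higher, at 0.610. PHOT1 had 2 junction regions (FDR 9.81e-103 and 6.51e-85). BBX17, whose transcript fell, had intron 2 more retained, at 0.90, and BBX18, whose transcript rose, had intron 1 less retained, at -0.64. SPA1 had 1 junction region (FDR 6.55e-06).

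Splicing factor genes were called for splicing at a few sites. RS2Z32 had intron 2, in its untranslated region, at -0.45, and SR34 and RS2Z33 had junction changes (FDR 9.66e-07 and 0.0038). PTB3, a polypyrimidine tract-binding protein gene, had introns 1 and 2 at -0.65 and -0.82, and RRC1 had a junction change (FDR 1.73e-08). None of these 5 genes was called for expression.

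ARR8, a type A response regulator not called for expression, had 8 called regions, all lower, with introns 1 to 4 from -1.33 to -1.71. The exon bins between these introns were about as low, at -1.39, -1.37 and -1.34. Coverage of this whole stretch was thus lower relative to the gene, which does not by itself show less intron retention. BAM3, whose transcript rose, had its 3 introns at -1.09, -1.42 and -1.27, whereas DPE1, whose transcript fell, had 5 introns from 11 to 15 more retained, at 0.72 to 1.41. The Calvin cycle gene GAPA, which rose, had introns 1 and 3 more retained, at 1.00 and 0.83. LUP2, a triterpene synthase gene not called for expression, had intron 14 of 17 more retained, at 4.66 (FDR 4.17e-45), while its 21 other bins were all lower. These are more bins than the gene has introns. Each bin is compared with its gene, so these falls were not independent of the rise at intron 14. BGLU47, a glucosidase gene that rose by 1.62, had 7 bins, all higher, from 2.15 to 4.69. THI1, of thiamine synthesis, rose in expression by 2.96 and had intron 1 at 3.78. Among loci with a symbol, PIPK10 intron 4 and PUB54 intron 2 were lowest, at -3.60 (FDR 0.00992) and -3.56 (FDR 0.00758). ROPGEF11 intron 5 was at 2.69, and the gene's isoforms were called in opposite directions, at 2.11 and -1.12. This gene overlaps PSAH2, which rose by 2.90, although intron 5 lies outside the overlap. Reads of the neighbours may be mixed since strand is not given in the sources used here. The introns that carry these results are printed 5′ to 3′ from TAIR10.1, with the splice site dinucleotides in capitals. Their labels give the sign of the intron bin alone.
LHY intron 5, chr1:36000-36089, minus strand, less retained: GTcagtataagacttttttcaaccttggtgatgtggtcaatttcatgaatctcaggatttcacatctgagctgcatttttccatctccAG
LHY intron 7, chr1:35475-35566, minus strand, less retained: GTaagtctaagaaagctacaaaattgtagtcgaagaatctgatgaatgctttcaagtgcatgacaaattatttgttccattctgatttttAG
PIF7 intron 5, chr5:24638996-24639080, minus strand, less retained: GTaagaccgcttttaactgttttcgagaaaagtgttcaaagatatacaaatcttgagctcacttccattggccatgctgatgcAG
CRY3 intron 4, chr5:8536862-8536962, minus strand, less retained: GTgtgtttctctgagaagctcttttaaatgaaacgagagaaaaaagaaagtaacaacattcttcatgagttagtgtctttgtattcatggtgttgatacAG
ARR8 intron 1, chr2:17222383-17222491, plus strand, less retained: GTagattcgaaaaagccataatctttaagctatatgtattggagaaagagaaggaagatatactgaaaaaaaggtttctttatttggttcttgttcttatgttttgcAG
LUP2 intron 14, chr1:29700023-29700104, plus strand, more retained: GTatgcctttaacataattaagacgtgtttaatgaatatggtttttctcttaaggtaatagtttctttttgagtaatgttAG
THI1 intron 1, chr5:22247033-22247155, plus strand, more retained: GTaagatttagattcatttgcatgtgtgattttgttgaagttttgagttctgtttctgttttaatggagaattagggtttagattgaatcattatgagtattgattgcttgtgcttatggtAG
All 7 begin with GT and end with AG, as did 99.5% of the lower, 99.2% of the higher and 98.3% of all annotated introns.

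The wild-type response was set beside that of seedlings labelled swap1-1, treated alike. The SWAP1 gene does not check that label: in red light isoform 3 was higher in the labelled mutant, at 170.5 against 90.0 in the authors' deposited table, and no SWAP1 transcript was called in the dark. Of the wild-type calls 4679 (75.1%) were also called in swap1-1. The difference of the fold changes, divided by the combined SE, passed a Benjamini-Hochberg (BH) adjusted p of 0.05 in 1233 of these transcripts, or 26.4%. The response was smaller in wild type in 872, larger in 258 and opposite in direction in 103. These 103 are all the transcripts called in opposite directions. Being called in both genotypes all but fixed that they would pass, so the test adds nothing for them. In the photosystem II list 9 of 11 genes differed and all 9 rose less in wild type, with PSBO2 at 3.31 against 3.75 (adjusted p = 0.00805). In the ethylene list 9 of 13 differed, 8 of them with the smaller fall in wild type. BAM3 and GLK2 rose further in wild type, at 4.06 against 3.25 (adjusted p = 4.46e-09) and at 2.25 against 1.46 (adjusted p = 6.06e-08). No list member was opposite in direction. Only transcripts called in both enter this test, so responses that swap1-1 lacked are not counted.

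Of the marker lists of other tissues, 1 of 8 root hair genes was called, LRX1, a wall protein gene, from 259.7 to 156 (log2 fold change -0.74, SE 0.30). Of 11 seed storage genes 3 were higher: EM6, a late embryogenesis gene, went from 21.2 to 221 (log2 fold change 3.38, SE 0.31), and OLEO2 and OLEO1, oil body proteins, were at 1.78 and 1.41. The other 8, with all storage globulins and albumins listed, were not called. Their part in the results above was not tested.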

How the data were processed

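RNA was measured in 3 dark and 3 red light wild-type libraries. Reads were handled with FastQC, STAR, HTSeq and DESeq2 for expression and ASpli 2.0 for splicing, on TAIR10, per the submitters' processing notes, which give no other settings. The authors deposited tables of called rows only. They hold, per transcript, a signal value, the base mean or mean normalised read count over the libraries of both groups, with a log2 fold change, its SE, a Wald score and p-values, all made by the authors. Per splicing region the authors deposited a log2 fold change, FDRs for the bin and its junctions, and per gene ontology term a gene count, an enrichment ratio and p-values. Values per library are not analysed here, so no test over libraries was made.

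Group levels were solved from the base mean and the fold change, assuming 3 libraries a group. Introns and promoters came from RefSeq TAIR10.1, whose chromosomes were matched to the files' coordinates. Of 499 list entries, 476 had locus and symbol paired in that annotation. Of 1390 intron bins, 97.0% equalled an annotated intron. For the difference from swap1-1, the difference of fold changes over the root of the summed squared SE was tested with a two-sided normal p, adjusted by Benjamini-Hochberg over 4679 transcripts. On simulated data with 200 shifted transcripts it recovered 26.5%, 71.0% and 92.0% of shifts of 0.5, 1 and 2 log2 units. The lower bound on transcripts tested came from the adjusted and raw p-values.

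Members and gene lists were chosen with earlier results of these data known. The naming rule was the 4 furthest changed called members of each list, every member against its list's majority, the 10 largest rises and falls at a base mean of at least 100 and the 6 highest levels in each direction; other genes were named after their values were seen, and 1 gene that the rule names is not reported here. Alternatives were other thresholds, base mean filters, counts per locus and bin subsets. Python 3.11.15, pandas 2.3.3, NumPy 2.4.6, SciPy 1.17.1 and matplotlib 3.10.9 were used.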

Additional observations from a re-analysis of the deposited data

Results flagged for a closer look

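For 16 list genes the red light response differed between wild type and the seedlings labelled swap1-1 by at least 1 log2 unit and past a BH-adjusted p of 0.05 in the normal test of the difference. Values are wild type minus swap1-1, from the authors' deposited fold changes, and the cause was not tested.

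Falls in ethylene genes were smaller in wild type. The difference was 1.82 for ACS8 (-4.61 against -6.43, adjusted p = 1.15e-09), 1.26 for ETR2 (-3.58 against -4.83, adjusted p = 3.66e-15) and 1.08 for EBF2 (-1.72 against -2.80, adjusted p = 5.49e-05). The fall was also smaller in wild type for PHOT1, by 1.11 (-5.37 against -6.48, adjusted p = 0.000254), for IAA19, an auxin response gene, by 1.5 (-1.75 against -3.24, adjusted p = 1.43e-12), and for EXPA11, by 1.17 (-1.68 against -2.85, adjusted p = 3.55e-05). BBX29 differed by 1.00 (-1.23 against -2.23, adjusted p = 0.00508) and PIF6 by 1.44 (-0.67 against -2.11, adjusted p = 0.000979).

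Among genes that rose, the difference was -3.96 for LHCB1.1, a light-harvesting gene with near-identical copies that can split its reads (6.25 against 10.21, adjusted p = 9.80e-39), and -1.75 for CHS, the first enzyme of flavonoid synthesis (1.5 against 3.25, adjusted p = 1.09e-29). ELIP1 differed by -2.71 (2.83 against 5.54, adjusted p = 5.39e-17), HYH by -1.64 (1.07 against 2.71, adjusted p = 4.11e-13) and GBSS1, a starch synthase gene, by -1.45 (1.43 against 2.88, adjusted p = 0.000212). For LHCB1.1 and ELIP1 the SE was 0.27 and 0.29 in wild type, and 0.11 and 0.096 in swap1-1. The median SE of the called wild-type transcripts with the highest base means was 0.0855. The rise was larger in wild type for BBX32, by 1.60 (7.08 against 5.48, adjusted p = 0.0222), and for PIF4, by 1.08 (3.01 against 1.93, adjusted p = 0.000577). LHY fell further in wild type, with a difference of -1.08 (-2.42 against -1.35, adjusted p = 0.0219) in its 1 called isoform.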

How the results depend on the processing

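With fold changes held to 1 log2 unit or more in size, 2292 transcripts were higher and 1233 lower, against 3760 and 2467, and 57 list genes were lower, against 90. At that fold, lower retention made up 62.5% of 437 intron bins, against 72.8% of all, and 24.8% of splicing loci were called for expression, against 40.2%. Lower retention made up 76.0% of bins at an FDR of at most 0.01 and 77.8% of the 36 bins with a junction call. The difference from swap1-1 passed in 799 transcripts at a BH threshold of 0.01, against 1233. Of 90 list counts under alternatives 19 moved by over 1.5 times, all at 1 log2 unit or more, and are given beside the lists or, for RS40 and LRX1, by their values. The counts at an adjusted p of 0.01, with base mean filters and per locus stayed within 1.5 times. The junction subset, bins without overlap, length subsets and promoter windows of 200 and 500 bases were chosen after seeing the data. In those windows the G-box was in 13.9% and 19% of promoters of genes higher by at least 2, against 5.64% and 9.35% of all.

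No paired analysis was possible because the tables hold no value of a single library, and leaving out each library could not be run for the same reason. Depth per library is unknown. Uncalled transcripts have no value here, so a missing call shows no absence of change.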
